A study of Mus musculus with 4 samples.

Results

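The 3 fibrinogen chain genes (Fga, Fgb and Fgg) and 6 clotting factor genes (F2, F5, F7, F9, F10 and F11) were described in mouse liver. They were taken by name from a fixed list of 9 genes, all 9 of which were present among the 16504 named genes of the array, each with 1 probe. RNA came from the livers of mice with polygenic obesity, at day 14 of a feeding trial in which diets with conjugated linoleic acid (CLA, a mix of isomers of that fatty acid) were compared with linoleic acid (LA), the control. Samples had been pooled by 5 or 4 before labelling. On each of 4 arrays 1 pool from either diet was hybridised, with CLA in the dye Cy5 and LA in Cy3 on arrays 1 and 2 and the dyes exchanged on arrays 3 and 4. Strain, sex and age are not given in the labels, and neither is which arrays share pools, so every p-value measures only the spread between these 4 arrays.

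Fibrinogen is the soluble plasma protein that thrombin turns into the fibrin of a clot. Hepatocytes build it from the alpha, beta and gamma chains encoded by Fga, Fgb and Fgg, whose genes lie together and are known to respond jointly to interleukin-6 in inflammation. F2 encodes prothrombin, the precursor of thrombin. F7, F9 and F10 encode precursors of proteases which, like prothrombin, need a vitamin K dependent modification to bind membranes. F5 encodes the cofactor that works with activated factor X, and F11 encodes the protease precursor that activates factor IX.

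The deposited values are log ratios, taken here as base 10 and multiplied by 3.32 to give log2 ratios. If the deposited base were 2, every log2 value below would be smaller by that factor. Every fold change below would be smaller too. The labels do not state which RNA is in the numerator, so 2 quantities are given for each gene. The sign-changing part is the mean of the 4 values after the sign of arrays 3 and 4 is turned, and the sign-keeping part is the mean of the 4 values as deposited. If the ratios are Cy5 over Cy3, the sign-changing part is CLA over LA and the other is the dye effect. If they were already turned to CLA over LA on every array, the sign-keeping part is CLA over LA and the sign-changing part is the dye effect. The ratios hold no levels, so the liver label could not be checked against the abundance of hepatocyte markers. In tissue RNA, fewer cells of a type and less RNA per cell cannot be told apart.

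The upstream sequences of the 3 fibrinogen genes are shown because these genes lay close to one another within each array, relative to the SD over all genes. That of F10 is set beside them because F10 had the largest sign-changing value of the 9 genes. Each is the 250 bases before the start of transcription, from RefSeq on build GRCm38.p6, written 5′ to 3′ on the strand of the gene. The windows are chr3:83025903-83026152 on the plus strand for Fga, chr3:83049864-83050113 on the minus strand for Fgb, chr3:83007474-83007723 on the plus strand for Fgg and chr8:13037058-13037307 on the plus strand for F10. All 9 genes had a window in that table, and the others are not printed. Capitals mark matches, on either strand, to any of 6 motifs searched: GTTAAT (core of the HNF1 element), TTGCNNAA (C/EBP type), CTGGGA and the variant spelled CTGGAA (both cores of interleukin-6 response elements), the core promoter box TATAAA, and also CAAAGT (core of the HNF4 element).
Fga: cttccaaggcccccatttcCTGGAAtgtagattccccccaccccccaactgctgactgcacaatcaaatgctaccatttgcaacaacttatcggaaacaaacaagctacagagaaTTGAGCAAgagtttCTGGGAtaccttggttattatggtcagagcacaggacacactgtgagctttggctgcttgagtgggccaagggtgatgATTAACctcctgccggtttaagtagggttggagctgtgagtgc
Fgb: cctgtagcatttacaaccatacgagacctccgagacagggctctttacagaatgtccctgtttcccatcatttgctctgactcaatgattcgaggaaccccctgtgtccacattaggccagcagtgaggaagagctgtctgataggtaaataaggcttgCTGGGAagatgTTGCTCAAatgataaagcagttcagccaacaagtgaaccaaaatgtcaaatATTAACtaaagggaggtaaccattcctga
Fgg: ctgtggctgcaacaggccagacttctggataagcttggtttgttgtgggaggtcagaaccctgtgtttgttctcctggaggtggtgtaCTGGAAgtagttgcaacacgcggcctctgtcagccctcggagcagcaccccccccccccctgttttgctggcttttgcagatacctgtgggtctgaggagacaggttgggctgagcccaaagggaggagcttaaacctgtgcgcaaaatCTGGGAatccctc
F10: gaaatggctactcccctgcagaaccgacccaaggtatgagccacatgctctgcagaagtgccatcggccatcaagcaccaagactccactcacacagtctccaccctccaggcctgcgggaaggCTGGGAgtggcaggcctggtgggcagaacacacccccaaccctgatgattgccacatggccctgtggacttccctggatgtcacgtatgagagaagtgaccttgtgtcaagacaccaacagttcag

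Fga and Fgb both held GTTAAT, on the minus strand, beginning 43 and 29 bases before the start of transcription. Both also held TTGCNNAA, at 135 bases in Fga and 80 in Fgb, and CTGGGA, at 121 and 91 bases. Fga alone of this pair also held CTGGAA, at 231 bases. Fgg held CTGGGA at 13 bases and CTGGAA at 162, and F10 held CTGGGA at 126. Of 32851 windows of this length in the table, 6.43% held GTTAAT, 9.56% held TTGCNNAA, 27.0% held CTGGGA and 21.5% held CTGGAA. The motif TATAAA, found in 12.4% of windows, and CAAAGT, found in 12.6%, were not in these 4 windows. No 2 of the 6 motifs overlapped in them. These matches describe letters only.

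The log2 ratios of the 3 fibrinogen chains lay close together within each array, relative to the SD over all genes, and were small throughout. Fga was at -0.24, -0.16, 0.12 and -0.18 on arrays 1 to 4 as deposited. Fgb was at -0.20, -0.12, 0.23 and -0.32 on the same arrays. Fgg was at -0.20, -0.22, 0.04 and -0.20. All 3 chains were below 0 on arrays 1, 2 and 4 and above 0 on array 3, so the 2 arrays with CLA in Cy3 lay on opposite sides of 0. The highest chain stood above the lowest by 0.04, 0.10, 0.18 and 0.15 on arrays 1 to 4, whereas the SD over all genes was 0.40, 0.50, 0.55 and 0.59. In the sign-changing part the mean of the 3 chains was -0.07 ± 0.20 (SD, n = 4 arrays). It was -0.12 ± 0.17 in the sign-keeping part. In both parts the mean lay nearer to 0 than 1 SD. Each SD also holds the other part and is not the error of the mean.

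None of the 3 chains passed the test in either part. In the sign-changing part Fga was at -0.09 ± 0.09 (SE, n = 4, limma adjusted p = 0.52), with a 95% interval from -0.33 to 0.15. Fgb was at -0.06 ± 0.12 (limma adjusted p = 0.76; interval -0.37 to 0.26) and Fgg at -0.06 ± 0.09 (limma adjusted p = 0.61; interval -0.29 to 0.16). In the sign-keeping part the chains were at -0.11 ± 0.09, -0.10 ± 0.12 and -0.14 ± 0.09 in the same order, with limma adjusted p of 0.57, 0.69 and 0.47. The sign-keeping intervals ran from -0.35 to 0.12 for Fga, from -0.41 to 0.21 for Fgb and from -0.37 to 0.08 for Fgg. Differences within these intervals were not excluded in either reading, so equal levels on both diets were not shown.

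**Figure D1:**
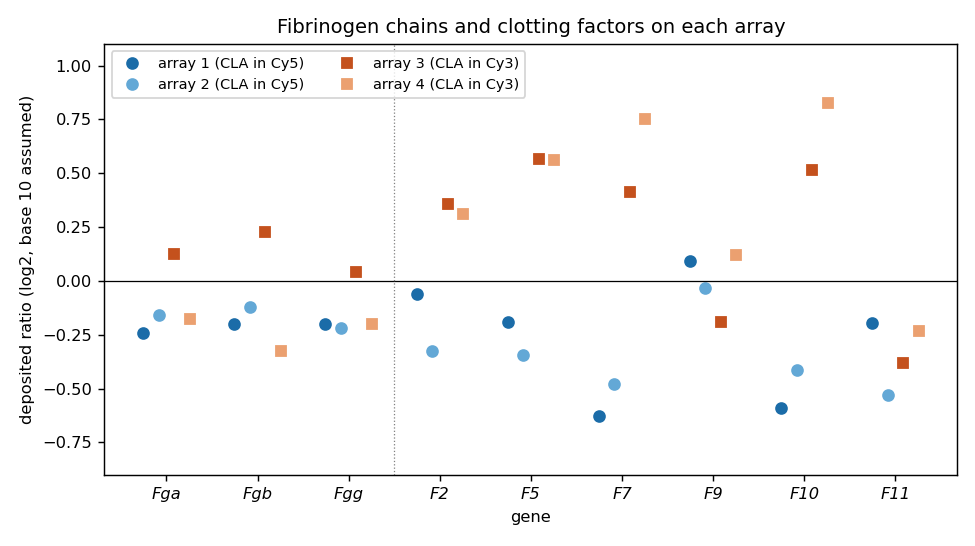
Deposited log2 ratio (vertical axis, base 10 assumed) of each of the 9 genes on each array; circles are the 2 arrays with CLA in Cy5 and squares the 2 arrays with CLA in Cy3, 1 point per array. The 3 fibrinogen chains sit between -0.32 and 0.23, with array 3 above 0 for each, while F2, F5, F7 and F10 are below 0 on arrays 1 and 2 and above 0 on arrays 3 and 4.

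The clotting factor genes were less uniform than the fibrinogen chains, and 4 of the 6 changed sign with the dyes. F10 had log2 ratios of -0.59, -0.42, 0.51 and 0.82 on arrays 1 to 4. F7 was at -0.63, -0.48, 0.41 and 0.75 on arrays 1 to 4. Both were among the lowest genes of array 1, with 5.59% and 4.92% of all genes below them, and among the highest of array 4, with 92.7% and 91.1% below them. They were less extreme on array 2, with 15.4% and 12.6% below them, and on array 3, with 86.0% and 81.2%. F5 was at -0.19, -0.35, 0.56 and 0.56, with arrays 3 and 4 differing by 0.0055. F2 was at -0.06, -0.32, 0.36 and 0.31, its value on array 1 being the one nearest to 0. For each of these 4 genes all 4 values were negative once arrays 3 and 4 were turned. So were those of 21.6% of all genes, and 21.3% were positive on all 4.

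In the sign-changing part 3 of the 9 genes passed the test, all with negative values, against 17.1% of all genes in either direction and 9.72% with negative and 7.37% with positive values. F10 was at -0.59 ± 0.10 (SE, n = 4, limma adjusted p = 0.031), F7 at -0.57 ± 0.10 (limma adjusted p = 0.033) and F5 at -0.41 ± 0.08 (limma adjusted p = 0.039). If the ratios are Cy5 over Cy3, these genes fell with CLA in 4 of 4 arrays. In that case, with base 10, the fall was 1.502-fold for F10, 1.48-fold for F7 and 1.33-fold for F5. F2 was at -0.26 ± 0.09 and did not pass (limma adjusted p = 0.099, unadjusted 0.032). None of the 3 genes passed once any 1 array was left out: F10 then had limma adjusted p of 0.076 without array 1, 0.058 without array 2, 0.12 without array 3 and 0.16 without array 4, with log2 values from -0.66 to -0.51. F7 had 0.081, 0.063, 0.12 and 0.17, with values from -0.65 to -0.48, and F5 had 0.080, 0.096, 0.14 and 0.18, with values from -0.45 to -0.38 (limma, 1 residual degree of freedom). F5 also missed the threshold without a term for the other part (limma adjusted p = 0.064) and after a trend over the feature number was removed (limma adjusted p = 0.051).

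In the sign-keeping part 0 of the 9 genes and 0 of all 16504 genes passed (0%, limma), with 1 of the 9 and 2234 of all genes at an unadjusted p under 0.05. F10, F7, F5 and F2 were at 0.08 ± 0.10, 0.01 ± 0.10, 0.15 ± 0.08 and 0.07 ± 0.09 there, with limma adjusted p of 0.69, 0.96, 0.45 and 0.71. Their 95% intervals ran from -0.17 to 0.33 for F10, from -0.24 to 0.27 for F7, from -0.06 to 0.36 for F5 and from -0.16 to 0.30 for F2. If the ratios were already CLA over LA, no diet difference was detectable for these 4 genes with 4 arrays, and the sign-changing values of F10, F7 and F5 are the dye effect.

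F11 and F9 departed from the other factors. F11 was at -0.20, -0.53, -0.38 and -0.23 on arrays 1 to 4 as deposited, negative on all 4, as were 4.92% of all genes. A further 4.72% were positive on all 4, which makes 9.64% with 1 sign throughout. Its sign-keeping part was -0.33 ± 0.10 (SE, n = 4), the largest of the 9 genes in either direction, with limma adjusted p = 0.35 (unadjusted 0.020) and a 95% interval from -0.59 to -0.08. That corresponds to 1.26-fold less with CLA if the ratios were base 10 and already turned, a difference that failed the correction over all genes. Its sign-changing part was -0.03 ± 0.10 (limma adjusted p = 0.85). F9 was at 0.09, -0.04, -0.19 and 0.12, with both signs in each dye orientation, and its 2 parts were 0.03 ± 0.09 and -0.0031 ± 0.09 (limma adjusted p = 0.82 and 0.99). The 2 orientations overlapped for both F9 and F11.

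From the most negative sign-changing value, the 9 genes stood in the order F10, F7, F5, F2, Fga, Fgg, Fgb, F11 and F9. The 95% interval of F10 ran from -0.84 to -0.34, that of F7 from -0.82 to -0.31, that of F5 from -0.62 to -0.21 and that of F2 from -0.49 to -0.03. The interval of each gene in this order covered the value of the next. All 9 genes were read on the same arrays, so these separate intervals do not compare 1 gene with another. Whether neighbours in the order differ was not tested. F10 and F7 lay at the 6.05 and 6.57 percentiles of all genes in this part, and the fibrinogen chains at the 37.8 to 41.2 percentiles. The sign-keeping order ran from F11 through the 3 chains, F9, F7, F2 and F10 to F5, at the 78.4 percentile.

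**Figure D2:**
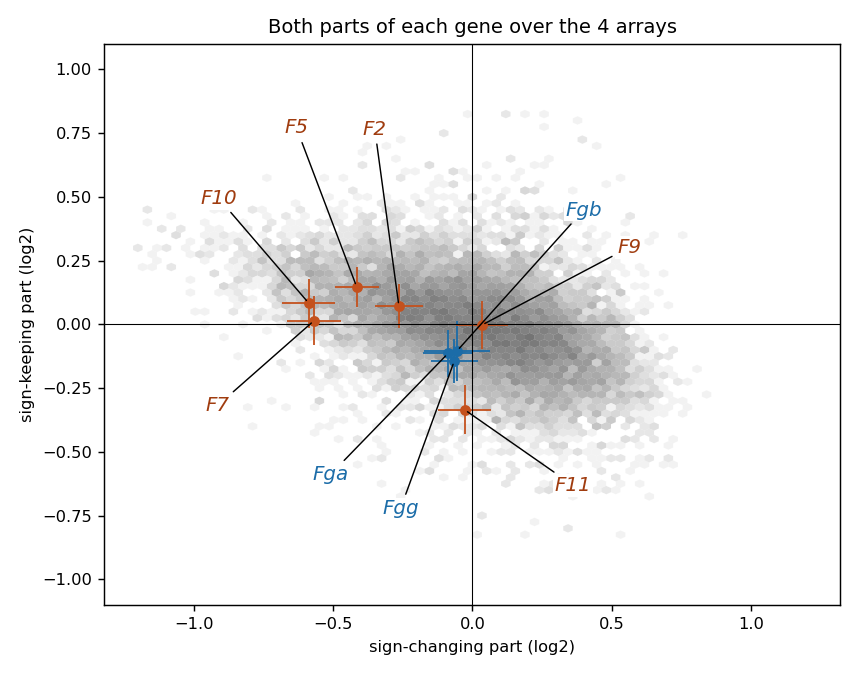
Sign-changing part (horizontal axis) and sign-keeping part (vertical axis) of every gene, both log2; grey hexagons hold all genes, darker with more genes on a log scale, and 196 genes lie outside the frame. Coloured points are the 9 genes with SE bars, blue for fibrinogen chains and orange for clotting factors; F10, F7 and F5 lie left of the other 6 genes, at -0.59, -0.57 and -0.41, F11 lies lowest of the 9, and the 3 chains lie together.

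Likeness between genes was measured as the Euclidean distance over the 4 deposited log2 ratios, as a description of these arrays. Among all other genes Fgg was the 6th nearest to Fga, at a distance of 0.11, and Fgb was the 70th, at 0.19. From Fgb, Fga was the 25th nearest and Fgg the 61st, at 0.24. From Fgg, Fga was the 10th nearest and Fgb the 203rd. The chains thus lay within the nearest 1.23% of genes of one another. Genes unrelated to clotting lay as near: Hopx, which encodes a small homeodomain protein, was 0.06 from the mean of the 3 chains, Slc45a4, Baiap2 and the cytochrome gene Cyp2j5 lay at 0.08 to 0.09 and Tspan33 at 0.10, whereas Fgb itself lay at 0.14.

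F7 and F10 were the closest pair among the clotting factors. The pair was set apart for closer description after its values were seen. On arrays 1 to 4 they differed by 0.04, 0.06, 0.10 and 0.07, which made F10 the 9th nearest of all genes to F7 and F7 the 16th nearest to F10, at a distance of 0.14. F2 and F5 were 0.35 apart. F9 and F11 each lay at least 0.525 from every other member, and F11 lay 1.45 from F10, the widest gap in the list.

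**Figure D3:**
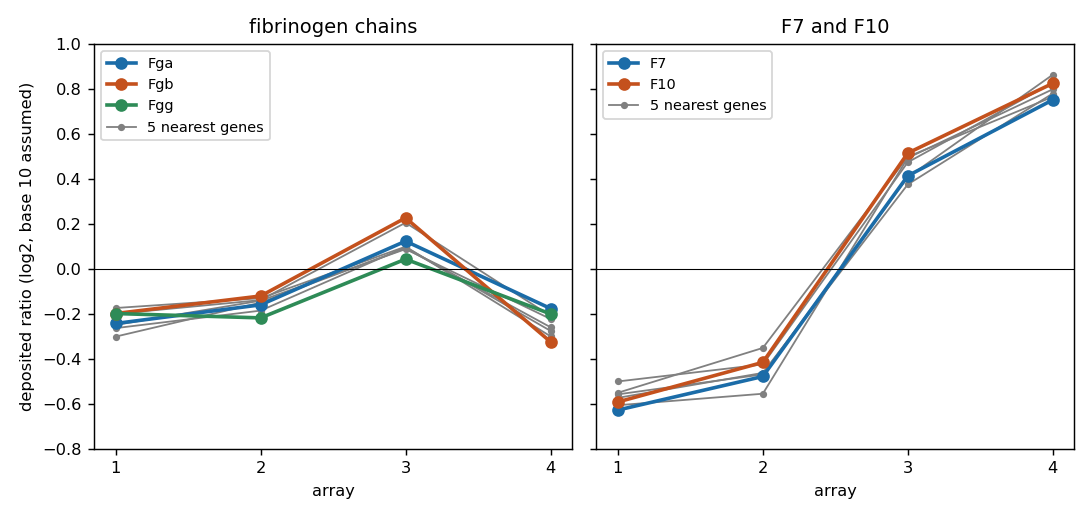
Deposited log2 ratios (vertical axis, base 10 assumed) on arrays 1 to 4 (horizontal axis) for the 3 fibrinogen chains (left) and for F7 and F10 (right), with lines that only link the values of 1 gene; grey lines are the 5 genes nearest to each mean. The chains peak on array 3 and return below 0 on array 4, whereas F7 and F10 lie above 0 on both arrays 3 and 4.

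In the RefSeq gene order Fgg, Fga and Fgb are neighbours on chromosome 3, and F7 and F10 are neighbours on chromosome 8. The genes beside the fibrinogen cluster, Lrat for a retinol acyltransferase and Plrg1 for a splicing factor, had sign-changing parts of 0.02 ± 0.19 and -0.11 ± 0.08, and neither passed (limma adjusted p = 0.95 and 0.38). Beyond F10 lie Proz, which was not analysed here, and Pcid2, which was at -0.13, 0.80, 0.24 and 0.60 on arrays 1 to 4. F11 is followed by Klkb1, for plasma prekallikrein, whose deposited values were -0.49, -0.72, 0.50 and 0.95, unlike those of F11.

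Other genes of blood clotting and clot removal were taken from 5 lists chosen with earlier results of these data known, and 33 of their 38 genes were measured. In the sign-changing part 10 of the 33 passed (30.3%, against 17.1% of all genes), 7 with negative and 3 with positive values, and their median was 0.01, close to 0.02 over all genes. In the sign-keeping part 0 passed (limma), with 3 at an unadjusted p under 0.05, and the median was -0.0020. The smallest p there belonged to Tfpi, for the inhibitor of the tissue factor pathway, at -0.50 ± 0.08, Procr, for the protein C receptor, at -0.58 ± 0.15, and F13a1, for the catalytic subunit of factor XIII, at -0.64 ± 0.20 (limma adjusted p = 0.35, 0.35 and 0.36). These 3 were named after their values were seen. Without array 3 and without array 4, 0 of all 16504 genes passed in the sign-changing part (limma, 4713 and 4016 at an unadjusted p under 0.05), so no call named here for these and the other lists held in those fits. Among the 8 genes of the contact and intrinsic steps, Klkb1 was at -0.66 ± 0.11 (limma adjusted p = 0.033) and F12, for factor XII, at -0.48 ± 0.08 (limma adjusted p = 0.034). F13b, for the carrier subunit of the fibrin cross-linking factor XIII, was at 0.56 ± 0.09 (limma adjusted p = 0.032). Of 4 genes for tissue factor and thrombin receptors, F2r, the main thrombin receptor of many cells, was at -1.01 ± 0.14 (limma adjusted p = 0.027) and F2rl3, another thrombin receptor, at -0.41 ± 0.09 (limma adjusted p = 0.047).

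Anticoagulant genes moved in both directions, with 3 of 9 past the threshold, against 17.1% of all genes in either direction. Serpinc1, for antithrombin, was at -0.68 ± 0.13 (limma adjusted p = 0.036) and Proc, for the vitamin K dependent protein C, at -0.43 ± 0.09 (limma adjusted p = 0.046). Thbd, for the thrombin receptor thrombomodulin of endothelium, was at 0.62 ± 0.08 (limma adjusted p = 0.025). Among 6 genes of clot removal Hrg, for a histidine-rich plasma protein, was at 0.34 ± 0.08 (limma adjusted p = 0.049). The other 5 did not pass, where 17.1% of all genes passed in either direction. Of 6 genes for the vitamin K cycle and the secretion of clotting factors, Lman1, the cargo receptor that carries factors V and VIII out of the endoplasmic reticulum, was at -0.81 ± 0.15 (limma adjusted p = 0.036). Its partner Mcfd2 was at 0.02 ± 0.08 and did not pass (limma adjusted p = 0.88). The carboxylase Ggcx and the reductase Vkorc1, which serve all vitamin K dependent factors, were at 0.20 ± 0.08 and 0.26 ± 0.08 and did not pass (limma adjusted p = 0.13 and 0.093), with values of the opposite sign to those of F7 and F10; Mcfd2, Ggcx and Vkorc1 were named after their values were seen.

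**Figure D4:**
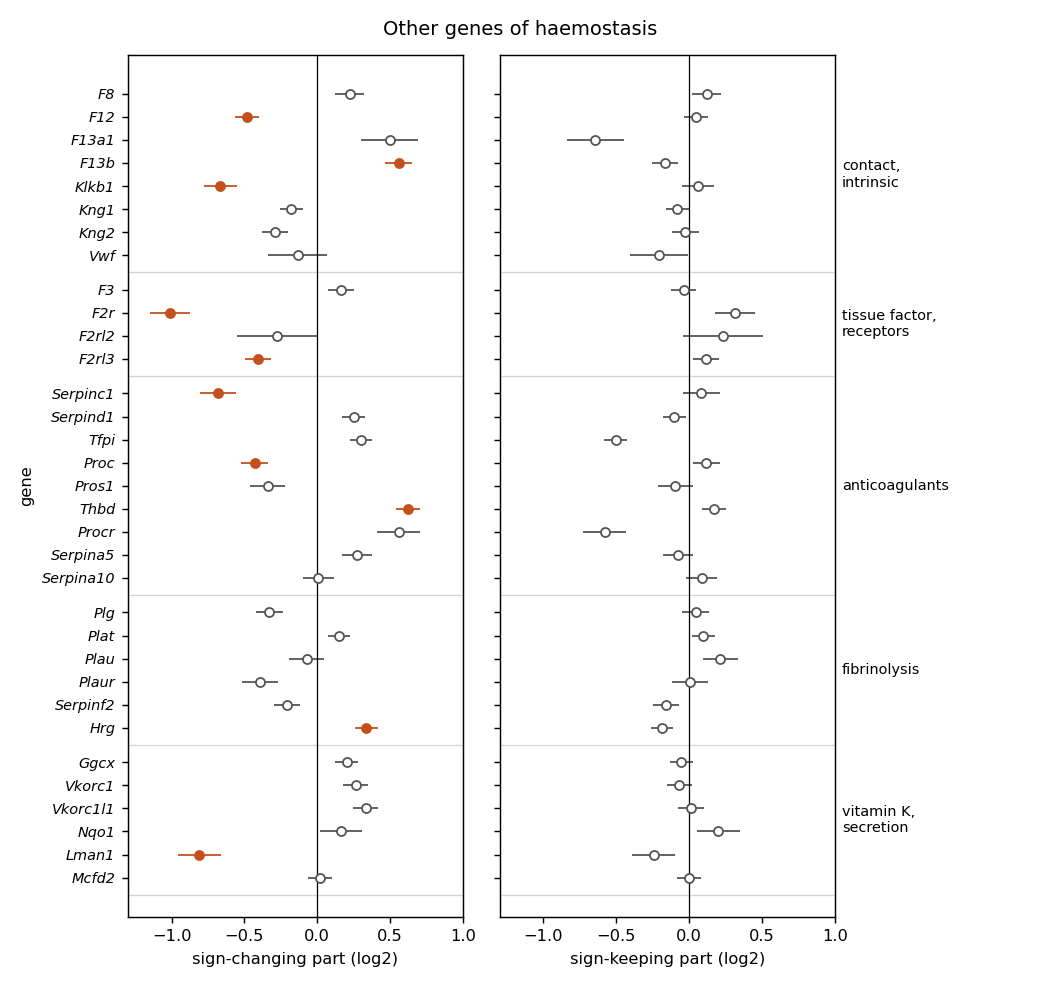
Sign-changing part (left) and sign-keeping part (right) of the 33 measured genes of haemostasis, log2 with SE bars over 4 arrays, grouped by role; filled orange points passed limma adjusted p under 0.05. The 10 that passed are all on the left, with F2r at -1.01 as the lowest and Thbd at 0.62 as the highest, and none passed on the right.

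Genes of interleukin-6 signalling and the acute phase, the programme to which the fibrinogen chains belong, were set beside them. All 17 had a negative sign-changing part, as had 7843 of all 16504 genes, and 7 passed, against 9.72% of all genes passing with negative values. Their median was -0.77, with values spread from -3.06 to -0.12, while the 3 chains ran from -0.09 to -0.06. The upper end of the list thus lay close to the chains. Hp, for haptoglobin, was at -1.19 ± 0.18 (limma adjusted p = 0.028), Itih4 at -0.83 ± 0.10 (limma adjusted p = 0.022) and Saa4 at -0.73 ± 0.09 (limma adjusted p = 0.024). Whether the chains differ from these genes was not tested. In the sign-keeping part the list had a median of 0.08 and 0 genes passed (limma, 1 at an unadjusted p under 0.05). Of 6 measured relatives of fibrinogen 3 passed with negative values (9.72% of all genes did), with Fgl1 at -0.80 ± 0.14, Angptl6 at -0.53 ± 0.08 and the ficolin gene Fcnb at -0.36 ± 0.08 (limma adjusted p = 0.033, 0.029 and 0.045).

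Of 9 measured genes for liver transcription factors, Cebpa was at -0.96 ± 0.10, Foxa3 at -0.52 ± 0.09 and Cebpb at 0.48 ± 0.08 in the sign-changing part (limma adjusted p = 0.021, 0.034 and 0.034). In that list 2 genes passed with negative and 1 with positive values, against 9.72% and 7.37% of all genes. Among 6 measured hepatocyte markers 1 passed on each side, Tat at 0.62 (7.37% of all genes passed with positive values) and Apob at -0.68 (9.72% with negative). The list median was 0.0085. Platelet markers had 2 of 6 past the threshold with positive values (7.37% of all genes), Ppbp and Gp5, at 0.60 and 0.46. In that list 5 values were positive and 1 negative, Treml1 at -0.25 ± 0.08, which did not pass (limma adjusted p = 0.097). Its medians were 0.18, 0.29, -0.49 and -0.46 on arrays 1 to 4. Of 5 macrophage markers 1 passed, Marco at -0.54, against 9.72% of all genes passing with negative values. That list went both ways, with 3 negative and 2 positive values. Adgre1 was at 0.43 ± 0.12 and did not pass (limma adjusted p = 0.068). Of 8 endothelial markers 0 passed (limma), against 17.1% of all genes in either direction. At an unadjusted p under 0.05 (limma) there was 1 gene of this list, against 6354 of all 16504. The 2 measured erythroid markers had medians of -0.71, 1.06, -0.01 and -0.86 and the 3 pancreatic ones 0.15, 0.07, -0.15 and 1.73. None of these 5 passed (limma, 1 at an unadjusted p under 0.05), against the same 17.1% of all genes. The part of such cells in the values of the 9 genes was not tested.

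Over all 16504 genes the sign-changing part called 2821, 1605 with negative and 1216 with positive values (limma), and leaving out array 1 gave 545, array 2 gave 739 and array 3 or 4 gave 0. Across genes, which are not independent replicates, the deposited values correlated with a Pearson r of 0.37 between arrays 1 and 2, 0.73 between arrays 3 and 4, and -0.63 to -0.20 between arrays of opposite orientation. Among 4159 features with no gene name, 473 lay over 10-fold from 0 in the sign-changing part (base 10 assumed). All 473 had negative values, and 13 of the 18218 named features lay over 10-fold from 0. The direction of the ratios was not settled from these values.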

How the data were processed

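Each array compared a CLA and an LA liver RNA pool in 2 colours. The deposited table holds the authors' processed log10 ratios, 1 column per array and 22393 features without missing values; base 10 is assumed, and normalization, centring, direction and software were not given by any source used here. No spot intensities were used, so no dim probe was filtered, and signal over background is unknown. The number of arrays limits the precision.

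Features were named from GEO's platform annotation: 18218 had 1 symbol, 16 several and 4159 none. Values were multiplied by 3.32 to give log2, and features of a gene were averaged (16504 genes, 1193 with more than 1 feature). The fit (limma 3.58.1 under R 4.3.3, with lmFit and eBayes) gave each gene a sign-keeping and a sign-changing coefficient on the 4 arrays (2 residual and 2.67 prior degrees of freedom), with Benjamini-Hochberg adjustment over all genes at 0.05. The fit was tested on simulated data with 50 of 16504 genes changed by each size. Of those changed by 0.5 log2, 0% were called in either part. At a change of 1 log2, 52% were called in the sign-changing and 46% in the sign-keeping part. So few genes were changed there that these shares need not hold for the deposited values. The 9 genes, the lists and the design were chosen with earlier results of these data known. Named genes were the 9, members of the haemostasis lists past the threshold, the 5 genes nearest to the fibrinogen mean, and up to 3 with the smallest p in each other list; neighbours were named by position. Outside this rule Tfpi, Procr, F13a1, Mcfd2, Ggcx and Vkorc1 were named after their values were seen. Promoter windows and gene order came from RefSeq tables (GRCm38.p6). Alternatives were centring, scaling, 1 coefficient alone, robust moderation, probes, probe medians, removal of a trend over the feature number (lowess, span 0.3), other thresholds, base 2 and leaving out each array. Figures used matplotlib 3.10.9.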

Additional observations from a re-analysis of the deposited data

Results flagged for a closer look

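For 2 of 18 sets of 4 values (9 genes, as deposited and with arrays 3 and 4 turned), 1 array lay far from the other three by Dixon's criterion, which chance meets in about 1 set in 20. Fgg as deposited was at 0.0433 on array 3, against -0.22 to -0.20 on the other arrays. F2 with arrays 3 and 4 turned was at -0.0599 on array 1, against -0.36 to -0.31 on the other arrays.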

How the results depend on the processing

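Centring, scaling and removal of the trend could move the 9 genes' values, and these kept their direction and their side of the threshold in 26 of 27 comparisons in the sign-changing part, F5 losing its call once, and in 21 of 27 in the sign-keeping part. Robust moderation and a fit without the other term change only the error, and F5 lost its call in the second. With 1 probe per gene, the probe settings leave these values as they are, and base 2 leaves the tests as they are. The 6 exceptions in the sign-keeping part were small values that changed sign: with scaled arrays F10 was at -0.033, F7 at -0.10 and F9 at 0.0016, with centred arrays F9 was at 0.0042, and with the trend over the feature number removed F7 was at -0.053 and F9 at 0.024. Leaving out 1 array at a time (36 comparisons in each part) turned 4 sign-changing and 5 sign-keeping values, with sign-changing ranges of -0.11 to 0.056 for F11 (0.0091 without array 4), -0.045 to 0.11 for F9 and -0.19 to 0.082 for Fgb, and sign-keeping ranges of -0.070 to 0.10 for F7 (-0.023 without array 2), -0.08 to 0.074 for F9 (0.029 without array 2) and -0.24 to 0.034 for Fgb. The count of genes called in the sign-changing part, 2821, was 0 to 739 with 1 array left out (545 without array 1), 1202 without the other term, 111 at a threshold of 0.01 and 5384 at 0.1. Of the 9 genes, 3 passed there with all arrays, 0 with any array left out, where 1 residual degree of freedom remains, 0 at 0.01 and 4 at 0.1. In the sign-keeping part 0 genes passed under each alternative run (limma, 523 to 3177 at an unadjusted p under 0.05). The cause of these differences was not tested.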
